A study of Rattus norvegicus with 6 samples.

Results

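The proteasome genes of rat liver were read on 6 arrays of liver RNA from male Wistar rats, 3 arrays for a control diet (15P) and 3 for an isoenergetic low protein diet (5P). Members were all probe sets of the Affymetrix rat array that the platform annotation assigns to exactly 1 gene symbol beginning with Psm, a letter from a to g and a digit. The rule found 60 probe sets of 31042 tested, which stood for 46 genes of 14217. Of these, Psmc3ip and Psme3ip1 share only the start of the symbol and encode no proteasome part. The other 44 genes, with 58 probe sets, encode subunits, activators, an inhibitor and assembly chaperones, and are called proteasome genes from here on. The rats were 6 weeks old and weighed about 150 g on arrival. They spent 4 days on pellets, then 4 days getting used to timed daily meals of the control diet. On the test day they had their diet for 8 hours and then 16 hours of starvation before the liver was collected. Both groups were therefore sampled fasted and had eaten the control diet before the test day. Whether the 3 arrays of a diet come from 3 animals is not spelled out in the labels, and the p-values rest on the spread between arrays, which may be technical.

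The proteasome is the large protease that degrades proteins tagged with ubiquitin and returns their amino acids to the cell, and in liver it works beside autophagy when food is short. Its barrel-shaped 20S core is built of alpha and beta rings, and the beta rings hold the catalytic sites. The 19S regulatory particle caps the core, binds ubiquitin chains and unfolds the substrate with a ring of ATPases. Under interferon, cells replace the 3 catalytic subunits by inducible ones, the immunoproteasome, which favours peptides for display to T cells.

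The proteasome genes were close to flat between the diets, with a small lean toward higher values on the low-protein arrays. None of the 44 genes passed the test (limma with Benjamini-Hochberg adjustment over all 14217 genes, smallest adjusted p = 0.144), nor any of their 58 probe sets over 31042 (smallest adjusted p = 0.144). Among all genes 0.183% passed, and among all probe sets 0.132%. The median log2 fold change of the 44 genes was 0.08, against 0.03 for all genes, and all but Psmg4 and Psmg2 (42 of 44) lay within 0.25 of 0. On the log2 scale used throughout, a difference is low protein minus control, and 1 unit is a doubling. In bulk liver, fewer cells of a type and less RNA per cell cannot be told apart.

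The lean was seen as a count more than as a size. A log2 fold change above 0 was found for 37 of 44 genes, or 84.1%, against 57.6% of all genes. The 3 low-protein arrays all read above the 3 control arrays for 12 genes, or 27.3%, where 12.8% of all genes did so, and no proteasome gene had all 3 low-protein arrays below the controls, where 10.1% of all genes did. At an unadjusted p under 0.05 there were 5 genes, all higher (11.4%, against 8.34% of all genes higher and 7.98% lower at that level). Those 5 were Psmg4, Psmg2, Psmc3, Psmb1 and Psmf1. The count of 5 was 2 without control replicate 1, and 3 without control replicate 3, without low-protein replicate 2 and without the third low-protein array; in the last case Psmd10, which was lower, was among the 3. The count of 37 ran from 34 to 38 over the 6 fits that left out 1 array. Scaling moved it together with the background: it was 33 with arrays centred on their median, where 50.9% of all genes were above 0, and 40 with arrays centred on their 75th percentile, where 67.9% were. The probe sets that stood for the 44 genes were bright, all at or above percentile 80.1 of mean intensity among all probe sets. Among the 7108 genes above the median intensity, 46.7% of all genes had a log2 fold change above 0 and all 44 proteasome genes were present, again with 37 above 0.

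**Figure D1:**
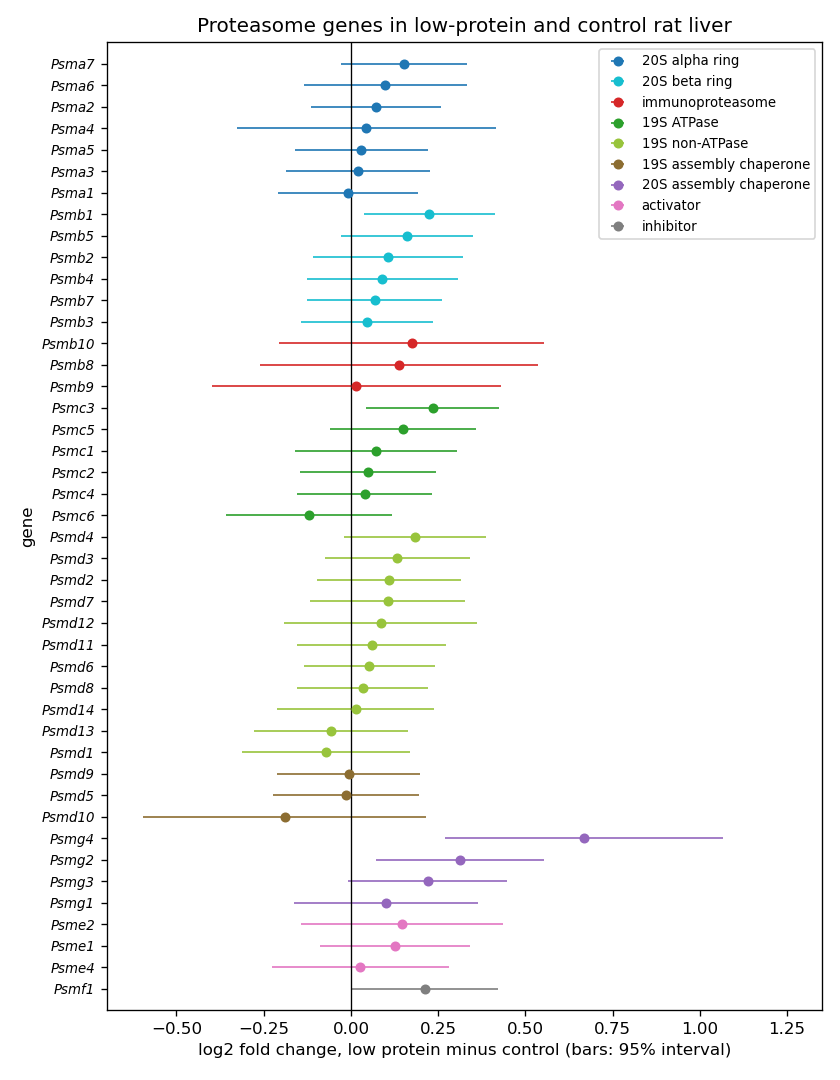
Log2 fold change (low protein minus control, horizontal axis) of the 44 proteasome genes, 1 row per gene, coloured by role; bars are 95% intervals from the moderated fit over 3 arrays a diet. Most points lie just to the right of 0 with intervals that cross it, and Psmg4, at 0.67, stands farthest out.

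The 20S core was measured by 13 genes, 7 of the alpha ring and 6 of the beta ring, and 12 of the 13 were above 0. The class median was 0.07, with single genes from -0.01 (Psma1, an alpha subunit) to 0.22 (Psmb1, a beta subunit without a catalytic site). The median was 0.12 with 75th-percentile centring and 0.0452 with median centring, and 0.0450 without low-protein replicate 3. The mean of the 13 genes, set to 0 over the controls, stood at 0.03, 0.0009 and -0.03 in the controls and at 0.08, 0.07 and 0.10 on the low-protein arrays. The 2 diets did not overlap in this mean, although none of the 13 genes passed. Over the 95% intervals of the 13 genes, the lowest bound was 0.798-fold and the highest 1.33-fold of control.

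Psmb1 (gene ID 94198) gave the lowest p of the core. It read 10.99, 10.95 and 10.90 (log2 intensity) in the controls and 11.14, 11.14 and 11.23 on the low-protein arrays. All 3 low-protein arrays were above all 3 controls, by more than the spread within either diet (means 10.95 ± 0.05 and 11.17 ± 0.05, SD, n = 3 each). The log2 fold change was 0.22 (SE 0.081), and the adjusted p = 0.233 from limma, with a range of 0.132 to 0.414 over the alternative settings.

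Psma7 (gene ID 29674), an alpha ring subunit, had the smallest spread of the module. It read 10.77, 10.73 and 10.78 on control arrays and 10.87, 10.93 and 10.92 on low-protein arrays, and the diets did not overlap. Its log2 fold change was 0.15 (SE 0.078, adjusted p = 0.38 by limma). Psma2 of the alpha ring and Psmb2 of the beta ring also had diets that did not overlap, with log2 fold changes of 0.07 and 0.11. The separation was nearly a tie in both. For Psma2 the highest control and the lowest low-protein array both read 9.94, and for Psmb2 they read 10.53 and 10.54. Psma4, another alpha ring gene, showed the reverse case, a wide spread with almost no diet difference. It read 9.82, 9.80 and 9.40 in controls and 9.93, 9.77 and 9.44 on low protein, so that 1 array of each diet was low and the log2 fold change was 0.04 (-0.09 to 0.18 over the arrays left out).

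The constitutive catalytic subunits measured by single-symbol probe sets were Psmb5, which carries the chymotrypsin-like site, and Psmb7, which carries the trypsin-like site. Psmb5 (gene ID 29425) read 10.74, 10.74 and 10.71 in controls and 10.81, 10.95 and 10.91 on low protein, with no overlap. Its log2 fold change was 0.16 (SE 0.082, adjusted p = 0.376 by limma), and its other probe sets, both dim, gave 0.05 and -0.06. Psmb7 (gene ID 85492) read 8.27, 8.27 and 8.24 in controls and 8.24, 8.32 and 8.42 on low protein. Its diets overlapped, and the log2 fold change was 0.07 (SE 0.084).

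**Figure D2:**
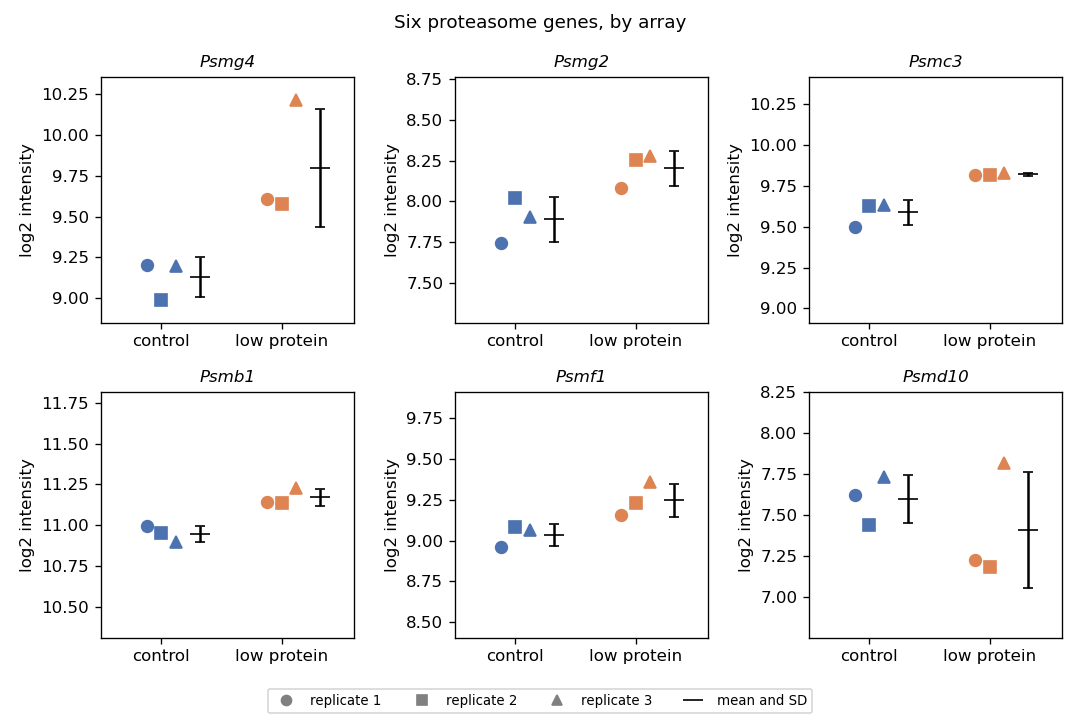
Log2 intensity (vertical axis, each panel spanning 1.5 units) of 6 proteasome genes on the 3 control and 3 low-protein arrays; marker shapes give the replicate number and black bars the mean and SD. Psmg4, Psmg2, Psmc3, Psmb1 and Psmf1 have diets that do not overlap, while in Psmd10 low-protein replicate 3 lies above all controls and the other low-protein arrays below them.

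The 19S regulatory particle was measured by 17 genes that matched the rule, and 14 of them were above 0. The median was 0.06, from -0.12 (Psmc6) to 0.23 (Psmc3), and none passed. It was 0.0924 when low-protein replicate 3 was left out. Centring arrays on the median gave 0.0327 for this class, and on the 75th percentile 0.11. Centred on the controls, the class mean read -0.03, 0.06 and -0.03 on control arrays and 0.09, 0.05 and 0.05 on low-protein arrays. Control replicate 2 lay among the low-protein arrays, so this class mean overlapped between diets where that of the core did not. The intervals of the 17 genes ran from 0.781-fold to 1.34-fold of control.

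Of the 6 ATPases that form the unfolding ring, Psmc3 (gene ID 29677) gave the smallest p. It read 9.50, 9.63 and 9.63 on control arrays and 9.82, 9.81 and 9.83 on low-protein arrays. The low-protein arrays were nearly equal and lay above every control. The log2 fold change was 0.23 (SE 0.082, adjusted p = 0.224 by limma, 0.132 to 0.466 over the alternatives). Psmc5 also had diets that did not overlap, at 0.15 (SE 0.091). Psmc1, Psmc2 and Psmc4 had log2 fold changes of 0.07, 0.05 and 0.04. Psmc6 was the ATPase below 0, at -0.12 (SE 0.103), but its probe sets disagreed, the other 2 giving 0.27 and -0.01.

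Of the 11 measured non-ATPase subunits, 9 were above 0. Psmd4, which encodes a ubiquitin receptor of the particle, read 8.60, 8.63 and 8.58 in controls and 8.67, 8.88 and 8.80 on low protein. These did not overlap, and the log2 fold change was 0.18 (SE 0.088, adjusted p = 0.348 by limma). Psmd14, the deubiquitinase that removes the chain before degradation, had 0.01 (SE 0.098), and its other probe sets gave 0.24 and -0.01. The large scaffold subunits Psmd1 and Psmd2 pointed apart, at -0.07 (SE 0.104) and 0.11 (SE 0.089). The remaining subunits Psmd3, Psmd6, Psmd7, Psmd8, Psmd11 and Psmd12 lay between 0.03 and 0.13, and Psmd13 at -0.06. The other probe set of Psmd7, nearly as bright, gave -0.04.

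**Figure D3:**
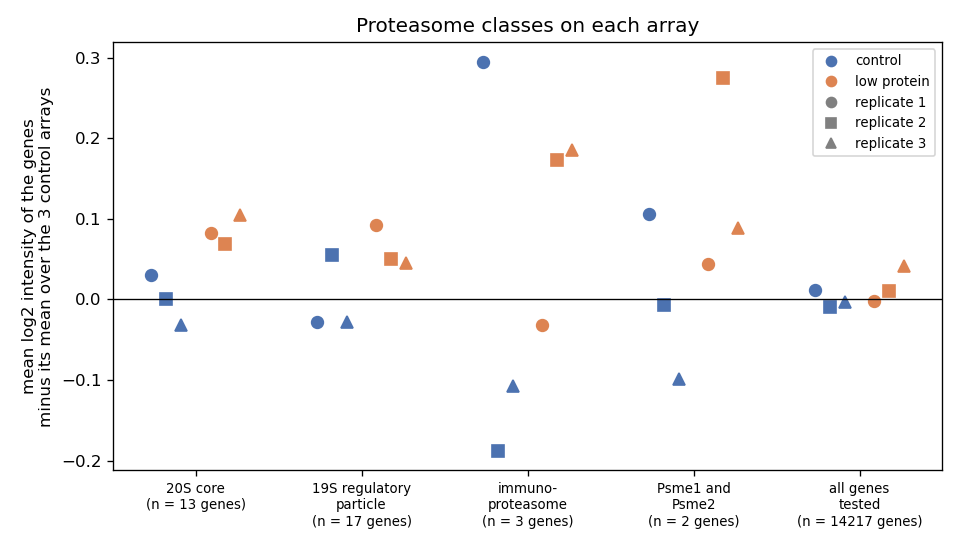
Mean log2 intensity of the genes of each class on each array, minus its mean over the 3 control arrays (vertical axis); colours give the diet and shapes the replicate number. The 20S core separates the diets, the 19S particle and the Psme1 and Psme2 pair overlap, and the immunoproteasome spreads from -0.19 to 0.30 within the controls alone.

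The immunoproteasome genes overlapped between the diets and spread more between arrays of the same diet than most constitutive subunits. Their within-diet SDs were 0.25 to 0.28, against a median of 0.06 in the core, 0.09 in the 19S particle and 0.13 over all genes. The class mean stood at 0.30, -0.19 and -0.11 in the controls and at -0.03, 0.17 and 0.19 on low protein, so the highest array of all was control replicate 1. The median of the 3 genes was 0.14. It was 0.24 without control replicate 1, 0.01 and 0.03 without control replicates 2 and 3, 0.20 without low-protein replicate 1, and -0.01 and 0.06 when the second or the third low-protein array was left out.

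Psmb8 (gene ID 24968), the inducible replacement of Psmb5, read 9.395, 8.997 and 9.37 in controls and 9.08, 9.69 and 9.40 on low protein. The diets overlapped, with a low array in each. Its log2 fold change was 0.14 (SE 0.173, adjusted p = 0.735 by limma), with a 95% interval of 0.835-fold to 1.45-fold. Psmb9 (gene ID 24967), which takes the place of the caspase-like subunit, read 8.84, 8.10 and 8.24 in controls and 8.35, 8.47 and 8.40 on low protein. The controls surrounded the low-protein arrays, and the log2 fold change was 0.02 (SE 0.179, from -0.13 to 0.24 over the arrays left out). Psmb10 (gene ID 291983), the replacement of Psmb7, read 7.85, 7.54 and 7.26 in controls and 7.67, 7.55 and 7.94 on low protein. These overlapped too, at 0.17 (SE 0.164, adjusted p = 0.64 by limma). For Psmb10 this ran from 0.03 without control replicate 3 to 0.32 without control replicate 1, and for Psmb8 from -0.01 without low-protein replicate 2 to 0.29 without low-protein replicate 1.

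Of the 3 inducible genes, Psmb8 and Psmb10 could be set against a constitutive partner measured by a single-symbol probe set, and Psmb9 could not. The log2 difference between Psmb8 and Psmb5 moved by -0.02 from control to low protein, with SDs of 0.23 in both diets. That between Psmb10 and Psmb7 moved by 0.11, with SDs of 0.28 and 0.15. Both movements were smaller than the spread between arrays of a diet. The same 3 genes do not all peak on the same array: the highest reading was low-protein replicate 2 for Psmb8, control replicate 1 for Psmb9 and low-protein replicate 3 for Psmb10.

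**Figure D4:**
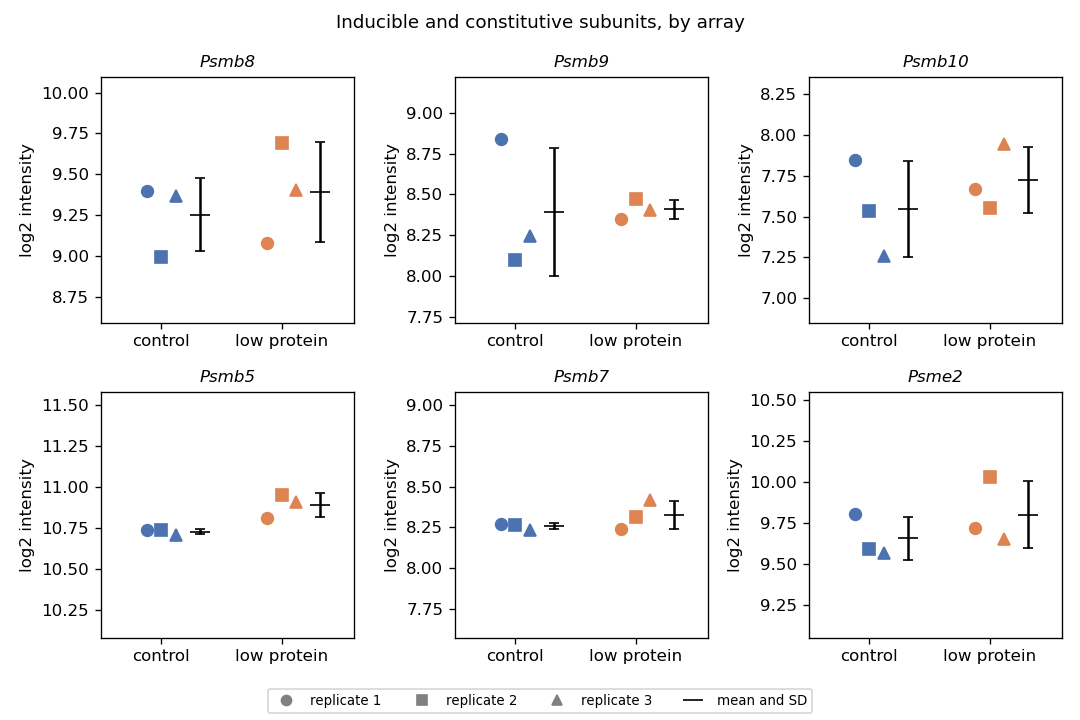
Log2 intensity (vertical axis, each panel spanning 1.5 units) of the inducible subunit genes Psmb8, Psmb9 and Psmb10, the constitutive subunit genes Psmb5 and Psmb7 and the activator gene Psme2, by array; black bars are mean and SD. The inducible genes scatter within each diet and overlap between diets, and Psmb5 and Psmb7 are tight in the controls.

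Interferon-linked genes give the setting for the inducible subunits. In a list of 21 interferon factors and targets, 19 were measured and none passed. Of the 19, 17 were above 0 (57.6% among all genes), with a median of 0.35. At an unadjusted p under 0.05, 9 of 19 were higher and 1 lower, against 8.34% and 7.98% of all genes. The antiviral gene Oas1a had 0.89 (SE 0.165, adjusted p = 0.0815 by limma), Ifit2 0.73 (SE 0.196) and the signal transducer Stat2 -0.36 (SE 0.098). The list mean read 6.50, 6.51 and 6.38 on control arrays and 6.57, 6.81 and 7.13 on low-protein arrays, without overlap, whereas the immunoproteasome mean overlapped. Their difference was not tested. Irf1, a factor known to induce the immunoproteasome, read 6.75, 6.56 and 6.55 in controls and 6.38, 7.09 and 7.25 on low protein (log2 fold change 0.29, SE 0.208).

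Genes that act downstream of the immunoproteasome, in loading peptides onto class I molecules, gave 0 of 10 past the test, and 7 of 10 above 0 (57.6% among all genes) with a median of 0.04. At an unadjusted p under 0.05, 2 of 10 were higher and none lower, against 8.34% and 7.98% of all genes. The chaperones Calr and Pdia3, which also serve general protein folding, had 0.62 (SE 0.114, adjusted p = 0.081) and 0.31 (SE 0.117). The class I gene RT1-S3 had 0.31 (SE 0.150). The transporter genes Tap1 and Tap2, named after their values were seen because they lie beside Psmb8 and Psmb9 in the class II region, had 0.12 (SE 0.174) and 0.04 (SE 0.120), and Tap1 had -0.08 without low-protein replicate 3.

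The proximal promoters of Psmb5, Psmb8 and Psmg4 are printed as those of a constitutive catalytic gene, its inducible replacement and the gene with the highest log2 fold change. Sequences are from RefSeq, build GRCr8, 250 bases before to 50 after the annotated start, 5′ to 3′ on the gene's strand, and 40 of the 44 genes had an entry. Capitals mark matches on either strand to TGACNNNGC, the core of the antioxidant response element that NFE2L1 and NFE2L2 read, or to TTTCNNTTTC, the core of the interferon-stimulated response element. Psmb5, chr15:32047330-32047629, minus strand, holds the first, 60 bases before the start. Psmb8, chr20:4656982-4657281, minus strand, holds the second, beginning 4 bases before the start. Psmg4, chr17:30923324-30923623, minus strand, holds the second on the opposite strand, just after the start.
Psmb5: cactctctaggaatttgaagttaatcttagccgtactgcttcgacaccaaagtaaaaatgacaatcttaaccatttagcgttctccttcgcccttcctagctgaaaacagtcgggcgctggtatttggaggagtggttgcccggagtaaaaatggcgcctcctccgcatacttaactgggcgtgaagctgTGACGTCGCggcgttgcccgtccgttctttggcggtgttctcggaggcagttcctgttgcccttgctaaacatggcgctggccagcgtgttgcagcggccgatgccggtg
Psmb8: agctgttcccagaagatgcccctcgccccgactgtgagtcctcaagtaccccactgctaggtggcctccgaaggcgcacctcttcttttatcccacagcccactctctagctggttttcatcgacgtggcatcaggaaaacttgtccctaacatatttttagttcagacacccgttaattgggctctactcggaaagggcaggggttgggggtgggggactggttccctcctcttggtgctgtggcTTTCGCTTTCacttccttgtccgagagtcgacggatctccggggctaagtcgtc
Psmg4: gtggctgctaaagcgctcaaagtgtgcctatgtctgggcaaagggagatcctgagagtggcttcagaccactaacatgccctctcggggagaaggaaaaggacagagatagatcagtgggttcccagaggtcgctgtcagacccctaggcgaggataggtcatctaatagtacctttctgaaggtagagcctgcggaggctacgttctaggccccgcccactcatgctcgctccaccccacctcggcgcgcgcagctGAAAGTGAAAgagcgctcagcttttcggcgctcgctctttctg

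Over the 40 promoters, TGACNNNGC was found in 7, or 17.5%, against 12.2% of all 27457 promoters of this length. The 7 genes were Psma3, Psmb2, Psmb5, Psmd1, Psmd3, Psmd9 and Psme4, with a median log2 fold change of 0.03, against 0.09 for the 33 without it. TTTCNNTTTC was found in 7, or 17.5%, against 3.77% of all promoters. These were Psma4, Psmb10, Psmb3, Psmb8, Psmd7, Psme2 and Psmg4, with a median of 0.14, against 0.07 for the 33 without it. The gamma-activated site TTCNNNGAA, whose letters read the same on both strands, was found in 4 promoters (10.0%, against 8.68%) and the CCAAT box in 20 of 40 (against 37.7% of all promoters). Matches of different motifs overlapped once, in Psmb2, where the CCAAT box and TGACNNNGC share 1 base. Another 6 motifs were searched. GGAAGTG was found in 12 of 40 promoters (30.0%, against 10.1% of all) and GCCATC in 12 (30.0%, against 14.7%). CCCGCCC was found in 17 (42.5%, against 24.2%) and TATAA in 6 (15.0%, against 26.1%). GGAA, which GGAAGTG contains, was found in all 40 promoters, where 95.8% of all promoters held it. TGACTCAGC, which holds the letters of TGACNNNGC, was found in 0 of 40, where 0.412% of all promoters held it. Counting these 6 motifs too, 33 pairs of matches overlapped, in 19 promoters. All motifs were searched on both strands and with the differences between diets known. The median log2 fold changes with and without TTCNNNGAA were 0.12 and 0.07. They were 0.07 and 0.10 for the CCAAT box and also for GGAAGTG. For GCCATC they were 0.06 and 0.10, for CCCGCCC 0.04 and 0.11, and for TATAA 0.08 and 0.08. No difference in medians between promoters with and without a motif was tested. A match says only that these letters occur in the window.

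The assembly chaperones of the core held the largest differences of the module. They pair the alpha subunits into rings before the beta subunits are added, and leave the finished particle. All 4 genes, Psmg1 to Psmg4, were above 0, with a median of 0.27, and 3 of the 4 had diets that did not overlap, where 12.8% of all genes were higher without overlap. Psmg4 (gene ID 689623) read 9.20, 8.99 and 9.20 in controls and 9.61, 9.57 and 10.21 on low protein. Every low-protein array lay above every control, and replicate 3 was clearly the highest. The log2 fold change was 0.67 (SE 0.173), or 1.59-fold with a 95% interval of 1.20-fold to 2.10-fold, and it did not pass (adjusted p = 0.144 by limma, 0.104 to 0.318 over the alternatives). Without low-protein replicate 3 it was 0.46.

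Psmg2 (gene ID 291539) read 7.74, 8.02 and 7.91 in controls and 8.08, 8.26 and 8.28 on low protein. The lowest low-protein array was just above the highest control, and the log2 fold change was 0.31 (SE 0.104, adjusted p = 0.205 by limma). Psmg3 read 7.20, 7.46 and 7.40 against 7.57, 7.65 and 7.50, again without overlap, at 0.22 (SE 0.098). Psmg1, the partner of Psmg2, overlapped, at 0.10 (SE 0.114). Pomp, the maturation factor that works after these chaperones and has no Psm symbol, read 11.21, 11.19 and 11.12 in controls and 11.34, 11.53 and 11.39 on low protein. It did not overlap either, at 0.25 (SE 0.088, adjusted p = 0.226 by limma).

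The chaperones that assemble the 19S ATPase ring were not above 0 in the main fit. Psmd5, Psmd9 and Psmd10 had log2 fold changes of -0.01 (SE 0.090), -0.01 (SE 0.089) and -0.19 (SE 0.175). The other probe set of Psmd9, which was dimmer, gave 0.05 without overlap between the diets. Psmd5 and Psmd9 lay so near 0 that their signs turned in some of the alternative settings, so neither gene showed a direction. Psmd10, which encodes gankyrin, read 7.62, 7.44 and 7.73 in controls and 7.22, 7.18 and 7.82 on low protein. Low-protein replicates 1 and 2 were below all controls and replicate 3 above them. The log2 fold change was -0.40 without low-protein replicate 3 and stayed below 0, at -0.08 or lower, when any other array was left out.

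**Figure D5:**
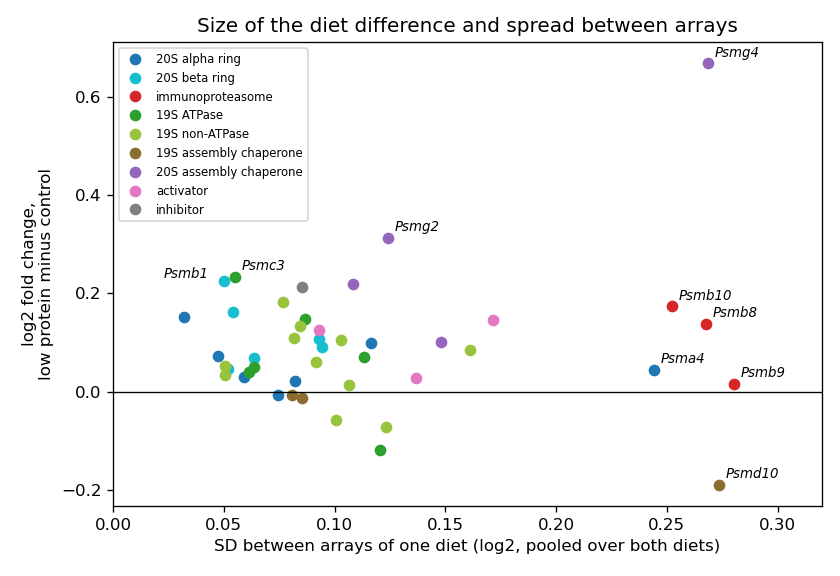
Log2 fold change (vertical axis) against the SD between arrays of one diet (horizontal axis, log2, pooled over both diets) for the 44 proteasome genes, coloured by role. Most genes lie to the left, and Psmb8, Psmb9, Psmb10, Psma4, Psmd10 and Psmg4 have the largest SDs, from 0.244 (Psma4) to 0.280 (Psmb9).

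Activators and the inhibitor were all above 0 without passing. Psme1 and Psme2, the interferon-inducible activator ring that opens the core without ATP, had log2 fold changes of 0.13 (SE 0.093) and 0.15 (SE 0.125). Psme2 read 9.81, 9.59 and 9.57 in controls and 9.72, 10.03 and 9.65 on low protein, so 1 low-protein array stood out and the rest overlapped. Psme4, the activator of nuclear proteasomes, had 0.03 (SE 0.110), and its other probe sets gave 0.07 and -0.05. Psmf1, named for its inhibition of the core in vitro, read 8.96, 9.08 and 9.06 in controls and 9.16, 9.23 and 9.36 on low protein. These did not overlap, at 0.21 (SE 0.091, adjusted p = 0.298 by limma).

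Proteasome genes are known to be induced together by NFE2L1, which escapes degradation when the protease is short of capacity. Of 12 measured genes of that axis none passed, 5 were above 0 (57.6% among all genes) and the median was -0.05. At an unadjusted p under 0.05, 3 of 12 were higher and none lower, against 8.34% and 7.98% of all genes. Nfe2l1 itself read 7.40, 7.53 and 7.52 in controls and 7.71, 7.81 and 8.14 on low protein. These did not overlap, and the log2 fold change was 0.40 (SE 0.123, adjusted p = 0.179 by limma), or 0.28 without low-protein replicate 3. The repressor gene Bach1, dim at intensity percentile 27.4 of all genes, had 0.26 (SE 0.086). Sel1l, of degradation from the endoplasmic reticulum, had 0.19 (SE 0.082). Of the 7 genes below 0, Nfe2l2 had -0.36 (SE 0.172) and Ngly1 -0.23 (SE 0.120), both with overlap between the diets.

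Other parts of the pathway were also without a gene past the test. Among all genes 57.6% were above 0, and 8.34% were higher and 7.98% lower at an unadjusted p under 0.05. Of 16 measured partners that bind or build the proteasome, 9 were above 0, with a median of 0.01. At that unadjusted level 1 of the 16 was higher (Pomp) and 1 lower. The lower one, Akirin2, an adaptor for nuclear import of proteasomes, read 7.20, 6.37 and 6.61 in controls and 6.07, 6.11 and 6.11 on low protein (log2 fold change -0.63, SE 0.191, adjusted p = 0.18 by limma). Without control replicate 1, the highest array, Akirin2 had -0.39. The shuttle gene Ubqln1 had 0.25 (SE 0.113). Of 12 genes of the VCP unfoldase and its cofactors, 6 were above 0 with a median of 0.01, and none reached an unadjusted p under 0.05; Vcp itself had -0.12 (SE 0.085), Ubxn4 0.09 and Nploc4 0.10. Of 12 ubiquitin ligases linked to fasting, 4 were above 0 and the median was -0.04, again with none under 0.05. Fbxo31, Fbxo30 and Fbxo32 had -0.25, -0.19 and 0.08. Fbxo32 and Trim63, both among those above 0, were dim, at intensity percentiles 9.75 and 4.30 of all genes. The ubiquitin-activating genes Uba1 and Uba6 had -0.08 and -0.13.

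Markers of other cells were read beside these values. Hepatocyte markers were the brightest list on every array (mean log2 12.73 to 12.90 in controls, 12.65 to 12.87 on low protein, 7 of 7 measured), with log2 fold changes from -0.35 (Tat) to 0.10 (Cyp2e1) and 3 of 7 above 0. Alb, Ttr and Serpina1 lay near the top of the measured intensities, from percentile 99.9 to 100 of all genes. Whether they could read higher was not tested. Kupffer cell markers, 6 of 7 measured, overlapped (7.83 to 8.29 and 8.11 to 8.44), with a median log2 fold change of 0.10. Their single genes ran from -0.09 (Cd163) to 0.43 (Cd68, 0.24 without low-protein replicate 3). Lymphocyte markers, 6 of 8 measured, overlapped as well (4.40 to 4.44 and 4.35 to 4.46), with single genes from -0.23 (Cd8a) to 0.30 (Cd79b). All but Ptprc of these lymphocyte markers were dim, from percentile 5.80 (Cd3d) to 24.9 (Nkg7) of mean intensity among all genes. Endothelial markers, 4 of 5 measured, overlapped too (8.02 to 8.31 and 7.98 to 8.31). Red blood cell markers, 4 of 5 measured, did not (6.42 to 6.50 and 6.65 to 6.81), with Hbb at 0.48 (SE 0.084, adjusted p = 0.0729 by limma) and Alas2 at 0.43 (SE 0.098) without overlap, and Slc4a1 at 0.14 and Epb42 at -0.06 with overlap. The part of these markers in the lean of the proteasome genes was not tested. The leading principal component took up 36.9% of the variance and separated the diets. The low-protein arrays scored 17.3, 19.5 and 22.6 on it. Control replicate 3 scored -10.1, nearer to them than the other controls at -26.9 and -22.5. Without control replicate 3, 34 of 44 proteasome genes were above 0, with a median of 0.07.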

How the data were processed

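Liver RNA for 6 arrays was amplified with a 3' IVT kit and read on Affymetrix rat arrays, per the labels. The authors deposited 1 intensity for each probe set and array; the submitters' processing notes name RMA, and its software and version were not stated. RMA scales the arrays to each other, so a shift common to most genes cannot be seen. Values ran from 3.61 to 21668, were read as linear and were log2-transformed.

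With 57 control probe sets left out, 31042 were tested, 20826 of them with 1 gene symbol. The brightest probe set stood for a gene. All 46 member symbols matched RefSeq (GRCr8) by gene ID. The two-sided test was that of limma (version 3.58.1, R 4.3.3) after lmFit with eBayes, adjusted by Benjamini-Hochberg at 0.05 over the whole table. It had 4 residual degrees of freedom (7.95 with the prior for genes). The code was run on simulated data, which does not show that differences as small as those of most proteasome genes would pass. Intervals at 95% use the moderated SE. Figures used matplotlib 3.10.9. Arrays carry no depth, and their number limits the precision.

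Members, classes, lists and motifs were chosen with earlier results of these data known. By rule, genes are described for an unadjusted p under 0.05, as extremes of a class or as catalytic subunits. Up to 3 genes of smallest p per list are added. Psma1, Psmc6, Psme4 and many list genes are given without their array readings. Psma7, Psma2, Psmb2, Psma4, Psmc5, Psmd4, Psme2, Psmg3, Irf1, Tap1, Tap2, Nfe2l2, Ngly1, Cd163 and Epb42 were picked after their values were seen.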

Additional observations from a re-analysis of the deposited data

How the results depend on the processing

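In none of the 18 alternative settings did a proteasome gene pass (limma, smallest adjusted p from 0.104 to 0.276). No proteasome probe set passed wherever probe sets were tested (limma, smallest adjusted p from 0.11 to 0.286). They were not tested in the settings that took the mean of a gene's probe sets or the probe set of largest SD. The count above 0 ran from 33 to 40 of 44. The count at an unadjusted p under 0.05 was 9 with 75th-percentile centring and with a pseudocount of 16, 3 with the replicate block, and 2 to 6 with 1 array left out. Same-numbered arrays did not deviate together (correlations of -0.0873, -0.0272 and -0.102), so the replicate block pairs arrays by number alone; it changed no call after adjustment. The medians of the core, the 19S particle and all 44 genes were 0.12, 0.11 and 0.13 with 75th-percentile centring, where all genes had 0.0796. With median centring the core had 0.0452, the 19S particle 0.0327 and all 44 genes 0.0515, where all genes had 0.00335. The 19S median was 0.11 with the probe set of largest SD. With 1 array left out, the core median ran from 0.045 to 0.10, that of the 19S particle from 0.0423 to 0.0924, of all 44 genes from 0.0661 to 0.0926 and of the immunoproteasome from -0.0117 to 0.24. Of the related lists' genes, 1 passed when only genes above the median intensity were tested, which left 85 of 108 (Hbb, adjusted p = 0.0453 by limma, against 0.0729). Signs of 14 genes turned in at least 1 setting, among them Psmb8, Psme1 and Psmc6 with main values of 0.14, 0.13 and -0.12, and 30 genes kept theirs in all 18. The turned values were found with median centring (Psma3 -0.00648, Psmb9 -0.0114, Psmd14 -0.0141, Psme4 -0.000381), with 75th-percentile centring (Psma1 0.0413, Psmd5 0.0351, Psmd9 0.0425), with quantile normalization (Psma1 0.00462, Psmd5 0.0216, Psmd9 0.0465), with array weights (Psma1 0.00696, Psmd14 -0.00272), with mean of all probe sets of a gene (Psmc6 0.0472, Psmd9 0.0214), with probe set of largest SD (Psmc6 0.27, Psme1 -0.0368, Psme4 -0.0531). With 1 array left out, the ranges of genes that turned were Psma1 -0.039 to 0.045, Psma3 -0.0252 to 0.0667, Psma4 -0.0931 to 0.18, Psma5 -0.00548 to 0.0684, Psmb8 -0.0117 to 0.29, Psmb9 -0.13 to 0.24, Psmc1 -0.0101 to 0.12, Psmd1 -0.16 to 0.0152, Psmd14 -0.0638 to 0.0629, Psmd5 -0.068 to 0.0316, Psmd9 -0.0627 to 0.0457, Psme4 -0.0417 to 0.11. Where a setting does not by construction use fewer genes or arrays, the cause was not tested.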

Other observations

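Several proteasome genes with more than 1 probe set had probe sets that disagreed in sign: of 9 such genes, 2 had the same sign in all (Psmc4 and Psmd11). Of the 14 probe sets that did not stand for a gene, 6 were below the median intensity of all probe sets.

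Probe sets that the annotation assigns to several symbols were outside the rule and 6 of them carry a proteasome symbol. The one shared by Psmb6l1 and Psmb6, the caspase-like subunit, read 9.58, 9.71 and 9.39 in controls and 9.83, 9.87 and 9.79 on low protein. The low-protein arrays lay above the controls, with a log2 difference of 0.27 (SE 0.102, adjusted p = 0.257 by limma over probe sets). The one shared by Psma3l and Psma3 had 0.07 (SE 0.086). Of 4 shared by Psme3, Aoc3 and G6pc1, the differences ran from 0.02 to 0.27, and which gene they measure is not settled by the annotation.

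The 2 genes that matched only by the start of their symbol had log2 fold changes of 0.14 (SE 0.097) for Psmc3ip, a meiotic recombination factor, and 0.12 (SE 0.083) for Psme3ip1.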
